A study of Mus musculus with 2 samples.

Results

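The fibroblast growth factor (FGF) ligands Fgf3, Fgf9, Fgf10 and Fgf20, the receptors Fgfr1, Fgfr2 and Fgfr3, and the Sprouty genes Spry1 and Spry2 were followed across the cells of the mouse utricle, the otolith organ of the inner ear that senses linear acceleration. They are 9 of the 31053 genes in the count tables and were chosen by symbol, with earlier results of these data known. All 9 symbols carried the Ensembl identifier that GENCODE M21 gives them. The tissue was utricular sensory epithelium of wild-type (WT) mice at postnatal day 2 (P2) and embryonic day 14 (E14), freed from the underlying tissue with thermolysin, dissociated with Accutase and profiled by droplet-based scRNA-seq, with 1 library at each age. Each library pooled the utricles of several animals, and no animal can be told apart within it, so no test between ages was possible and no p-value is given. Transcripts were counted by their molecular tags (UMIs), of which the P2 library had 57003553 in 6251 barcodes and the E14 library 122892080 in 15636 barcodes.

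FGFs are secreted proteins that bind tyrosine kinase receptors together with heparan sulfate, and the activated receptor signals through the Ras-ERK cascade. Sprouty proteins are made in response to that signal and dampen it, so that they serve as both readout and brake of receptor tyrosine kinase signalling. In the mouse inner ear, FGFs are known for induction of the otic placode, for shaping the vestibule and its canals, and for the differentiation of hair cells (HCs) and supporting cells (SCs) in the cochlea.

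After removal of low-quality barcodes and likely doublets, 3877 cells remained at P2, with a median of 9813 UMIs, and 10138 cells at E14, with a median of 6724. The 9 genes and the marker genes were left out of the clustering. Clusters were named from marker genes, as "X-like". HC-like cells (725 at P2, 217 at E14) had UMIs of all 12 HC markers. SC-like cells (804 at P2, 692 at E14) had UMIs of all 13 SC markers. Mesenchymal-like cells of E14 had UMIs of all these markers too, so detection alone does not separate the classes. For naming, a marker had to be in at least 10% of a cluster's cells and at least 2-fold above the rest. Its level also had to reach 20% of that in its highest cluster. By that rule HC-like clusters had 6 to 12 HC markers at P2 and 11 at E14. SC-like clusters had 3 to 9 SC markers at P2 and 6 to 11 at E14. Nonsensory epithelial-like cells numbered 124 at P2 and 703 at E14. The E14 library was not a pure epithelium, as 4465 of its cells were mesenchymal-like, against 34 at P2. Haemoglobin took 0.0393% of the UMIs of the P2 library and 5.21% of those of the E14 library, and the libraries shared 23 barcodes, of which 10 were kept as cells. Clusters that stayed unnamed held 56.5% of the cells at P2 and 31.4% at E14. Among them, P2 cluster 2 (370 cells, median 1745 UMIs) and cluster 10 (166 cells, 1814 UMIs) each had 5 HC markers. Both failed the further rule for shallow clusters given with the processing. P2 cluster 1 (387 cells, 1402 UMIs) had 3 SC markers but also 3 glial markers. The median was 16857 UMIs in P2 HC-like cells and 11708 in P2 SC-like cells, so these classes leave out shallow cells with like markers.

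Levels are UMIs per 1000000 UMIs of the same cells (CPM), summed over a class or cluster, each with its exact 95% Poisson interval. Ratios of levels carry exact conditional binomial intervals. Both cover counting error only, not differences between animals. A gene is called higher or lower when the groups held at least 20 UMIs together and the levels differed at least 2-fold. The counts come from the 3′ ends of transcripts, so that splice forms, such as the b and c forms of the FGF receptors, were not separated, and levels of different genes are not compared.

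**Figure D1:**
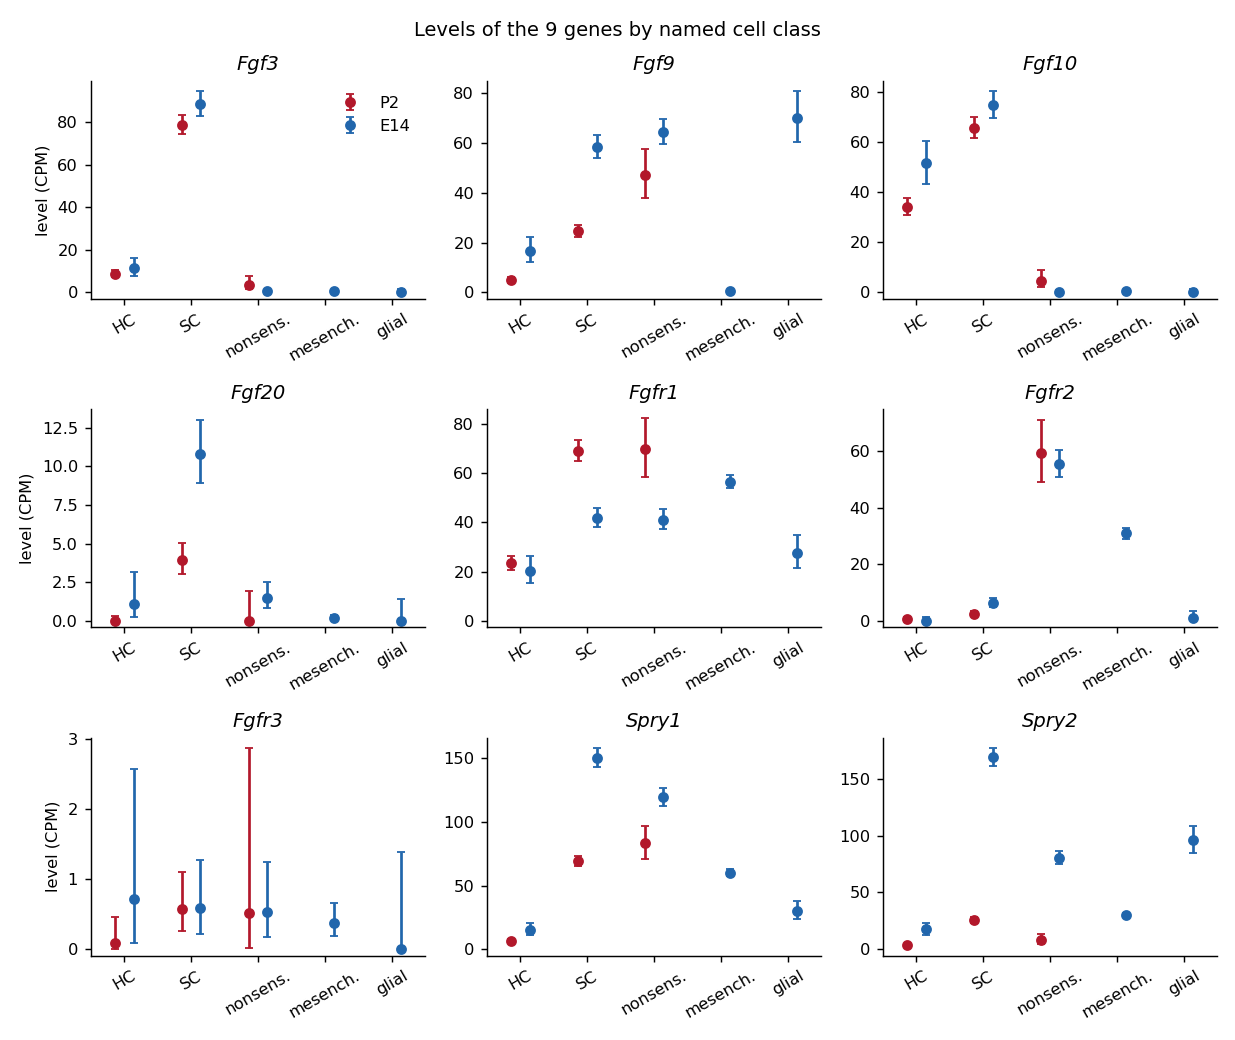
Level of each of the 9 genes (CPM, linear axis, one panel per gene) in HC-like, SC-like, nonsensory epithelial-like, mesenchymal-like and glial-like cells, with P2 in red left of E14 in blue. Points are sums over 1 library with 95% Poisson intervals, and classes under 50 cells are not drawn. Fgf3 and Fgf10 lie in the sensory classes, Fgfr2 outside them, and Spry2 in SC-like cells is at 25.4 CPM at P2 and 169.0 CPM at E14.

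The ligands differed in which cells held them. Fgf3, which encodes a ligand needed in the mouse for inner ear morphogenesis, was largely an SC transcript. In HC-like cells it reached 8.80 CPM at P2 (7.21 to 10.6) and 11.4 CPM at E14 (7.81 to 16.1). In SC-like cells it reached 78.8 CPM at P2 (74.5 to 83.4) and 88.7 CPM at E14 (83.04 to 94.66). Nonsensory epithelial-like cells held 7 Fgf3 UMIs at P2 and 5 at E14, and E14 mesenchymal-like cells 13 UMIs, or 0.412 CPM. The level in SC-like cells thus stood far above that of the classes around them at both ages.

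Fgf10, a ligand of the epithelial form of FGFR2 that acts in canal formation in the mouse, was held by both sensory classes. In HC-like cells it was at 34.2 CPM at P2 (31.0 to 37.7) and 51.4 CPM at E14 (43.3 to 60.5). In SC-like cells it was at 65.7 CPM at P2 (61.7 to 69.9) and 74.8 CPM at E14 (69.6 to 80.3). Outside the sensory classes it was close to absent, with 9 UMIs in nonsensory epithelial-like cells at P2, 3 at E14 and 14 in E14 mesenchymal-like cells.

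Fgf9, known in the mouse ear as an epithelial signal to the mesenchyme, was found in all named epithelial classes and was lowest of them in HC-like cells at both ages. In HC-like cells it was at 4.90 CPM at P2 (3.73 to 6.32) and 16.8 CPM at E14 (12.3 to 22.3). In SC-like cells it was at 24.6 CPM at P2 (22.2 to 27.2) and 58.3 CPM at E14 (53.7 to 63.2). In nonsensory epithelial-like cells it was at 47.0 CPM at P2 (37.8 to 57.7) and 64.4 CPM at E14 (59.3 to 69.7). The nonsensory level was above the SC level at P2, while at E14 the intervals of these classes overlapped. E14 glial-like cells, 378 cells led by Foxd3, Ednrb and Npr3, held Fgf9 at 69.9 CPM (60.2 to 80.8) and not 1 UMI of Fgf3, Fgf10 or Fgf20, whereas Fgf9 in mesenchymal-like cells was at 0.728 CPM.

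Fgf20, which in the mouse cochlea is needed for the differentiation of part of the sensory epithelium, was rare. SC-like cells held 61 UMIs at P2, or 3.93 CPM (3.00 to 5.04), and 111 UMIs at E14, or 10.8 CPM (8.90 to 13.03). HC-like cells held 0 UMIs at P2 (0 to 0.306 CPM) and 3 UMIs at E14. Nonsensory epithelial-like cells held 0 UMIs at P2 and 14 at E14, of which 13 lay in the cluster led by Ttr, Wnt4 and Otx2.

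The receptors were distributed in another way. Fgfr1, whose loss in the mouse cochlea reduces the sensory epithelium, was broadly present. In HC-like cells it was at 23.4 CPM at P2 (20.8 to 26.3) and 20.3 CPM at E14 (15.4 to 26.4). In SC-like cells it was at 69.2 CPM at P2 (65.1 to 73.4) and 41.8 CPM at E14 (38.0 to 46.0), and in nonsensory epithelial-like cells at 69.7 CPM at P2 (58.5 to 82.5) and 41.1 CPM at E14 (37.1 to 45.5). The 6 mesenchymal-like clusters at E14 ran from 42.3 to 78.8 CPM, the lowest of them within the interval of SC-like cells of the same age. Immune-like cells of E14 held 7 UMIs, or 4.14 CPM.

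Fgfr2, the receptor whose splice forms serve epithelium and mesenchyme, was nearly absent from the sensory classes. HC-like cells held 9 UMIs at P2, or 0.747 CPM (0.342 to 1.42), and 0 UMIs at E14. SC-like cells held 40 UMIs at P2, or 2.57 CPM (1.84 to 3.51), and 66 UMIs at E14, or 6.43 CPM (4.98 to 8.19). Nonsensory epithelial-like cells were at 59.4 CPM at P2 (49.0 to 71.3) and 55.5 CPM at E14 (50.9 to 60.5), and E14 mesenchymal-like cells at 31.0 CPM (29.1 to 33.0). Of the 66 UMIs in E14 SC-like cells, 25 came from the smallest of their 3 clusters, number 20 with 120 cells, which was also the shallowest (median 2952.5 UMIs). Its mesenchymal markers summed to 6644 CPM, against 299 and 873 CPM in the other clusters. Over the whole SC-like class these markers, 11 of 12 detected at P2 and 12 of 12 at E14, summed to 13.7 CPM at P2 and 921 CPM at E14, and their part in the Fgfr2 level was not tested.

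Fgfr3, which marks pillar cells and neighbouring SCs in the mouse cochlea, was close to the limit of detection. All kept cells of P2 together held 13 Fgfr3 UMIs, with 9 in SC-like and 1 in HC-like cells. At E14 the counts were 6 in SC-like, 2 in HC-like and 12 in mesenchymal-like cells. The levels of 0.579 CPM in P2 SC-like cells (0.265 to 1.10) and 0.585 CPM in E14 SC-like cells (0.215 to 1.27) overlapped with that of E14 mesenchymal-like cells (0.196 to 0.664), so that no order of the classes was detectable at this depth.

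The Sprouty genes were present in epithelium and mesenchyme. Spry1 was at 6.64 CPM in P2 HC-like cells (5.27 to 8.27) and 15.3 CPM in E14 HC-like cells (11.1 to 20.7). In SC-like cells it was at 69.2 CPM at P2 (65.2 to 73.5) and 150.6 CPM at E14 (143.2 to 158.3). Spry2 was at 3.32 CPM in P2 HC-like cells (2.37 to 4.52) and 17.5 CPM in E14 HC-like cells (12.9 to 23.1). In SC-like cells it was at 25.4 CPM at P2 (23.0 to 28.1) and 169.0 CPM at E14 (161.2 to 177.2). Both genes were thus low in HC-like cells and lower at P2 than at E14 in both sensory classes. At E14 Spry2 was higher in glial-like cells, at 96.0 CPM, than in endothelial-like cells, at 42.5 CPM. Spry1 had the opposite order, at 30.2 CPM in glial-like and 133.0 CPM in endothelial-like cells. The endothelial-like values rest on 113 cells with a median of 1881 UMIs.

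Shares of cells were compared at equal depth. With each cell thinned to 4000 UMIs, at least 1 of the 4 ligands was found in 18.0% of 722 HC-like cells at P2 and 19.8% of 197 at E14, in 47.9% of 772 SC-like cells at P2 and 58.4% of 565 at E14, but in 0.665% of 3609 mesenchymal-like cells at E14. At least 1 of the 3 receptors was found in 28.8% of those mesenchymal-like cells, in 9.70% of HC-like cells at P2 and 6.60% at E14, in 21.4% of SC-like cells at P2 and 15.6% at E14, and in 36.3% of 91 nonsensory epithelial-like cells at P2 and 33.7% of 615 at E14. A Sprouty gene was found in 27.5% of SC-like cells at P2 and 63.0% at E14. The 4 ligands do not include Fgf8, which was largely an HC transcript, as given below. Free RNA can place a UMI in a cell that does not express the gene, and its amount was not estimated. The mesenchymal-like share of 0.665% at E14 came at a median of 6917 UMIs before thinning. At P2 Fgf3 was found in 1 of 91 nonsensory epithelial-like cells (1.10%, 0.0278% to 5.97%) and Fgf10 in 3 (3.30%, 0.685% to 9.33%). That class had a median of 10479.5 UMIs before thinning, against 11708 UMIs in SC-like cells. Fgf3 and Fgf10 stood above these shares in SC-like cells. Fgf3 was found there in 24.7% at P2 and 27.8% at E14, and Fgf10 in 22.3% at P2 and 23.2% at E14.

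In HC-like against SC-like cells, 7 of the 8 genes with enough UMIs were at least 2-fold lower in HC-like cells at P2 and 7 of 8 at E14, and none was higher. Over all genes tested, 21.3% were lower at P2 and 20.3% at E14. Fgf3 in HC-like cells was at 0.112 times its SC level at P2 (0.0907 to 0.136) and 0.129 times at E14 (0.0875 to 0.183). Spry1 was at 0.0959 times at P2 (0.0754 to 0.120) and 0.102 times at E14 (0.0734 to 0.138), and Spry2 at 0.131 times at P2 (0.0919 to 0.181) and 0.103 times at E14 (0.0762 to 0.137). Fgf20 had no UMI in HC-like cells at P2, which with 3 UMIs as the floor gives 0.0634 times its SC level. The interval of this ratio reached up to 0.0804 times. The exception was Fgf10, at 0.521 times its SC level at P2 (0.463 to 0.584) and 0.687 times at E14 (0.571 to 0.822), although other settings gave as little as 0.478 times at P2 and up to 1.10 times at E14. Some SC RNA was found with HC-like cells, as the 3 macula-type SC genes Otol1, Otop1 and Tectb lay between 0.0331 and 0.0381 times their SC level there at P2 and between 0.0323 and 0.138 times at E14, and its part in the HC values was not tested. The E14 count was 2 of 8 when likely doublets were kept and 4 with coarser clusters, and Fgfr1 at E14, at 0.486 times, was within 2-fold under 7 of 14 alternatives.

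Within the SC-like cells of P2, Fgf3 and Fgf10 were highest in different clusters. Fgf3 itself was among the leading genes of cluster 3, with Gjb6 and Anks1b, and stood in its 324 cells at 121.9 CPM (113.4 to 130.8). Cluster 7, led by 1500015O10Rik, Fndc7 and Ptpn5, held it at 81.4 CPM (73.0 to 90.6). Cluster 12, led by Il33, Ces1d and Kcnip4, held it at 29.6 CPM (23.3 to 37.0), and cluster 13, led by Tectb, Igfbp3 and Pcdh19, at 17.6 CPM (12.8 to 23.6). None of these intervals overlapped, apart from those of clusters 12 and 13, which met at 23.3 and 23.6 CPM.

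Fgf10 had its highest level in cluster 13, where Fgf3 was lowest. It was at 136.3 CPM in cluster 13 (122.2 to 151.5), 70.4 CPM in cluster 3 (64.0 to 77.3), 41.3 CPM in cluster 7 (35.4 to 48.0) and 25.3 CPM in cluster 12 (19.6 to 32.2). The leading genes of cluster 13 further included Isl1 and Cyp26b1, a retinoic acid-degrading enzyme that marks the striola, the central band of the macula, in the mouse. Fgf9 also differed, at 35.3 CPM in cluster 7 and 31.5 CPM in cluster 12 but 8.39 CPM in cluster 13 (5.19 to 12.8). Spry2 was at 41.6 CPM in cluster 13 and 33.8 CPM in cluster 12, against 19.4 CPM in cluster 3 and 19.6 CPM in cluster 7.

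HC-like clusters at P2 also divided the ligands. Fgf3 lay mainly in cluster 8, led by Grp, Nnat and Eya2 and with Atoh1, the HC fate determinant, among its leading genes, at 21.8 CPM (17.5 to 26.8), with 1.37, 2.86 and 3.82 CPM in clusters 4, 11 and 15. Fgf10 was lowest in that cluster, with 13.1 CPM in cluster 8 (9.82 to 17.1), 27.7 CPM in cluster 4, led by Gal, Gm4791 and Nppa (23.4 to 32.7), 77.3 CPM in cluster 11, led by Spp1, Scg2 and Kcna10 (64.8 to 91.4), and 77.3 CPM in cluster 15, led by Ocm, Ighm and AI593442 (61.4 to 96.0). Fgf10 in the HC-like clusters 11 and 15 was thus within the range of the SC-like clusters.

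At E14 both ligands had the same order over the 3 SC-like clusters. The macula-type SC-like cluster 7, with 414 cells led by Tectb, Otol1 and Ntf3, had 82.6 CPM of Fgf3 and 70.2 CPM of Fgf10. Cluster 17, 158 cells led by Zpld1, Msx1 and Hes5, had 109.9 CPM of Fgf3 and 94.3 CPM of Fgf10, and cluster 20 had 51.3 CPM of Fgf3 and 30.5 CPM of Fgf10. The summed crista-type genes Zpld1, Msx1 and Lmo4, named for the sensory patches of the canals, exceeded the summed macula-type genes in clusters 17 and 20. The sums were 5288 against 89.8 CPM in cluster 17 and 1005 against 524 CPM in cluster 20. Cluster 20 was mixed, with Otol1 and Tectb among its markers and mesenchymal, SC and HC markers at 6644, 1833 and 1069 CPM. Mesenchymal-like clusters of E14, such as cluster 0 (75.4 against 3.72 CPM), met this rule too. The crista-type clusters are therefore not crista cells alone. Of 8 genes tested between the crista-type and the macula-type clusters, only Fgf20 was called, at 5.97 CPM in crista-type clusters and 13.7 CPM in the macula-type cluster, where 5.67% of all genes tested were lower and 4.01% higher.

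Between ages, 5 of the 8 genes tested in SC-like cells were at least 2-fold lower at P2 and none was higher, while over all genes tested 8.68% were lower and 10.1% higher. The median log2 ratio of the 8 genes was -1.18 and that of all genes tested 0.04. With the E14 class reduced to its macula-type cluster, 4 of 8 were lower, where 7.3% of all genes tested were. Spry2 had the lowest ratio of the 8, at 0.150 times its E14 level (0.134 to 0.168), or 0.139 times against cluster 7 alone. Spry1 was at 0.460 times (0.425 to 0.497), Fgf9 at 0.422 times (0.370 to 0.480) and Fgf20 at 0.363 times (0.261 to 0.5002). Fgf9 was at 0.515 times when likely doublets were kept, and Fgf20 at 0.503 times with clusters named from marker counts alone, neither of which is a call. Ranges over the clusters describe 1 library per age, as clusters are not replicates, and the share of all genes whose clusters separate by age was not counted. Spry2 ran from 19.4 to 41.6 CPM over the 4 SC-like clusters at P2 and from 104.2 to 321.6 CPM over the 3 at E14, Spry1 from 57.7 to 85.9 CPM at P2 and from 135.9 to 156.1 CPM at E14, and Fgf9 from 8.39 to 35.3 CPM at P2 and from 44.4 to 75.4 CPM at E14. The upper end for Spry2 and the lower ends for Spry1 and Fgf9 at E14 are cluster 20, in which the mesenchymal markers summed to 6644 CPM and the SC markers to 1833 CPM. The other E14 clusters held Spry2 at 183.5 and 104.2 CPM, Spry1 at 156.1 and 142.8 CPM and Fgf9 at 51.5 and 75.4 CPM.

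Fgfr2 was lower as well, at 0.4001 times (0.263 to 0.601), but at 0.532 times against cluster 7 alone (0.325 to 0.880), which is not a call. The ligands Fgf3 and Fgf10 stayed within 2-fold, at 0.889 times (0.815 to 0.969) and 0.879 times (0.799 to 0.966) their E14 levels, with no settled direction, as other settings gave up to 1.28 times for Fgf3 and 1.30 times for Fgf10. Fgfr1 went the other way without passing 2-fold, at 1.65 times (1.48 to 1.85), and ran from 51.1 to 84.8 CPM over the P2 clusters and from 36.7 to 44.2 CPM over the E14 clusters.

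**Figure D2:**
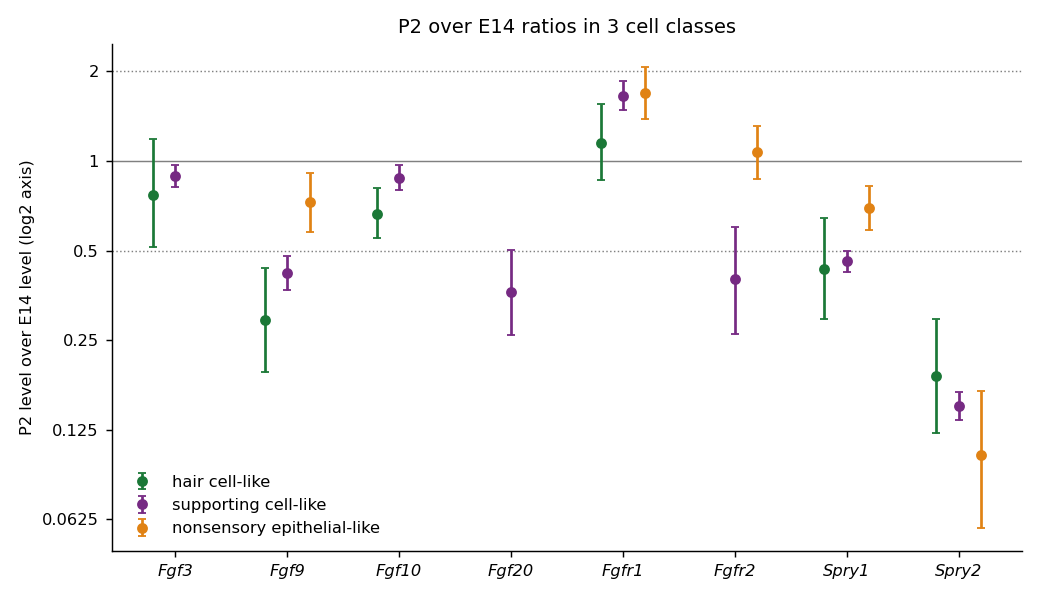
P2 level over E14 level (log2 axis) of 8 genes in HC-like (green), SC-like (purple) and nonsensory epithelial-like (orange) cells, with 95% intervals of counting error, drawn where both ages together held at least 20 UMIs. The solid line marks no difference and the dotted lines 2-fold. Spry2 lies lowest in all 3 classes, between 0.103 and 0.190, and Fgfr1 is above 1 in all 3, although in HC-like cells it was as low as 0.757 under other settings.

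In HC-like cells, 3 of 6 genes tested were at least 2-fold lower at P2 and none higher, where 6.44% of all genes tested were lower. They were Spry2 at 0.190 times its E14 level (0.122 to 0.294), Fgf9 at 0.292 times (0.196 to 0.438) and Spry1 at 0.433 times (0.295 to 0.643), all of which were also lower in SC-like cells. Spry1 was at 0.744 times, which is not a call, when list genes and markers were kept for clustering. Fgf10 was at 0.666 times (0.549 to 0.811), Fgf3 at 0.771 times (0.515 to 1.18) and Fgfr1 at 1.15 times (0.863 to 1.56), where the direction of Fgf3 and Fgfr1 turned under other settings. The 4 HC-like clusters of P2 held Spry2 at 1.95 to 6.68 CPM and Fgf9 at 0.954 to 5.81 CPM. The single E14 cluster held them at 17.5 and 16.8 CPM. For Fgf10 the P2 clusters ran from 13.1 to 77.3 CPM on both sides of the E14 level of 51.4 CPM. The count was 6 when likely doublets were kept and 5 with coarser clusters.

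Nonsensory epithelial-like cells gave 1 call among 5 genes, Spry2, where 11.3% of all genes tested were lower. It stood at 8.26 CPM at P2 (4.72 to 13.4, 16 UMIs) and 80.2 CPM at E14 (74.6 to 86.2), or 0.103 times (0.0586 to 0.168). Fgfr2 was at 1.07 times its E14 level (0.866 to 1.31), Fgf9 at 0.730 times (0.579 to 0.912), Spry1 at 0.697 times (0.587 to 0.822) and Fgfr1 at 1.69 times (1.38 to 2.07). The class was made of different clusters at the 2 ages, led at P2 by Kcne1, Lcn2 and Bpifb3 and by Nupr1, Prss56 and C1ql3, and at E14 by Rspo3, Lrp2 and Esrrb, by Ttr, Wnt4 and Otx2 and by Pyy, Prss56 and Mt3. Spry2 was at 11.3 and 5.72 CPM in the named P2 clusters, and between 55.6 and 83.8 CPM in the 3 E14 clusters. The unnamed P2 cluster 0, with 511 cells, had 2 nonsensory markers, Lmx1a and Slc26a4, short of the 3 needed for a name. Its SC markers summed to 2516 CPM, against 685 CPM in the named P2 nonsensory class and 6075 CPM in P2 SC-like cells. That cluster held Spry2 at 47.9 CPM (43.2 to 53.1) and is not in the ratio, which covers only the named clusters.

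Early-response genes are known to be induced when tissue is dissociated. A set of 9 of them (Fos, Fosb, Jun, Junb, Egr1, Ier2, Atf3, Hspa1a and Hspa1b), chosen after the Sprouty values were seen, was summed in the same cells. The sum was 9442 CPM in SC-like cells at P2 and 8915 CPM at E14, 1395 CPM in HC-like cells at P2 and 1579 CPM at E14, and 8899 CPM in nonsensory epithelial-like cells at P2 and 7858 CPM at E14. The single genes did not move together. In SC-like cells Jun was at 2908 CPM at P2 and 1610 CPM at E14, but Ier2 was at 991 CPM at P2 and 1928 CPM at E14 and Atf3 at 158 CPM at P2 and 462 CPM at E14, and in nonsensory epithelial-like cells Ier2 was at 1392 CPM at P2 and 2175 CPM at E14. Their part in the difference of the Sprouty genes between ages was not tested. Between HC-like and SC-like cells it differed in the same direction as the Sprouty genes, and its part in that difference was not tested.

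The promoters of the 3 genes lower at P2 in both sensory classes, Fgf9, Spry1 and Spry2, are shown as the windows from 250 bases before to 50 bases after the annotated start in RefSeq (GRCm38.p6), 5′ to 3′ on the gene's strand, with matches to the motifs named below in capitals. The Fgf9 window lies at chr14:58072436-58072735 (plus strand), that of Spry1 at chr3:37639697-37639996 (plus strand) and that of Spry2 at chr14:105896770-105897069 (minus strand). The table had windows for 7 of the 9 genes, and none for Fgf20 or Fgfr1.
Fgf9: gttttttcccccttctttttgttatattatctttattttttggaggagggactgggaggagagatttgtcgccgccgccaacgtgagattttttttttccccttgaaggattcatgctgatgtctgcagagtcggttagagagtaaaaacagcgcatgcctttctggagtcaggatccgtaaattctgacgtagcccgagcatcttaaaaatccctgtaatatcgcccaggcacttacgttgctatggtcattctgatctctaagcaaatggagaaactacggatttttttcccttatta
Spry1: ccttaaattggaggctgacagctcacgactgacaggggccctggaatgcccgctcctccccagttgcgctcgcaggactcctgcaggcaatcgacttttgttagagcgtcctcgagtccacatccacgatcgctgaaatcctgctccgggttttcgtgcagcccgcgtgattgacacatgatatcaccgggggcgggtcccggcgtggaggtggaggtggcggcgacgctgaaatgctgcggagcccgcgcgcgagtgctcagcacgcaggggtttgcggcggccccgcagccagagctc
Spry2: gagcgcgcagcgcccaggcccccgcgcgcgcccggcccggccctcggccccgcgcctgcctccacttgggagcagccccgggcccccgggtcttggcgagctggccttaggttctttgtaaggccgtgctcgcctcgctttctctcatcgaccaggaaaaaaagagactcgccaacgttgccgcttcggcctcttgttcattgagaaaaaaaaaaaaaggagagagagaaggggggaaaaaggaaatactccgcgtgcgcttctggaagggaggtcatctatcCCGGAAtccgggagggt

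Searched on both strands were CCGGAA, the preferred core of ETS factors such as the FGF targets Etv4 and Etv5, TGAGTCA, the AP-1 site, and the CArG box of serum response factor. Spry2 had 1 match, CCGGAA, which began 34 bases after the start, while Spry1 and Fgf9 had none. Among all 32851 windows in the table, 14.9% held CCGGAA, 5.2% TGAGTCA and 1.63% a CArG box, and 1 match is a description of these letters, not of a bound site. No match says only that the letters are not in the window.

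Of 65 further genes of the pathway in 6 lists, 52 could be tested in SC-like cells, and 3 were at least 2-fold higher and 6 lower at P2. In HC-like cells 2 of 46 were higher and 9 lower, and in nonsensory epithelial-like cells 3 of 51 were higher and 17 lower. The shares over all genes tested were 8.02% higher in HC-like cells and 9.13% higher in nonsensory epithelial-like cells, beside those given above.

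Among 12 transcriptional targets and feedback inhibitors, Dusp5, an ERK phosphatase of the nucleus, followed the Sprouty genes. It was at 67.4 CPM in SC-like cells at P2 and 272.1 CPM at E14, or 0.248 times (0.230 to 0.266), and at 3.57 CPM in HC-like cells at P2 and 27.1 CPM at E14, or 0.132 times (0.0884 to 0.194). It was the 1 gene of the 11 tested in this list that was called in SC-like cells. Dusp6, the cytoplasmic ERK phosphatase, stayed within 2-fold at 0.701 times, as did the ETS factors Etv1 at 1.62 times and Etv5 at 0.623 times, although Etv5 was at 0.485 times against cluster 7 alone. In HC-like cells Etv1 at 0.452 times and Etv5 at 0.447 times were lower together with Dusp5, 3 of 9 tested. In nonsensory epithelial-like cells 6 of 11 were lower. In SC-like cells the list's median log2 ratio was 0.33, beside 0.04 over all genes tested.

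Among 14 other secreted ligands, Fgf8 was largely an HC transcript. It was at 105.3 CPM in HC-like cells at P2 and 275.8 CPM at E14, or 0.382 times (0.349 to 0.418), against 5.66 CPM in SC-like cells at P2 and 5.07 CPM at E14. Fgf8 signals from inner HCs to pillar cells in the mouse cochlea. Fgf21, an endocrine FGF, was at 23.5 CPM in HC-like cells at P2 and 15.3 CPM at E14, within 2-fold. Its level in SC-like cells was at 1.56 times, and at 2.68 times (0.9299 to 10.6) against cluster 7 alone, a call with 26 UMIs at P2 and 4 at E14. Fgf16 was lower in SC-like cells, with 7 UMIs at P2 and 43 at E14, or 0.107 times, but 40 of these 43 lay in the crista-type clusters, and against cluster 7 alone, with 3 UMIs, it could not be tested.

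Receptor and co-receptor genes moved in both directions. Of the 5 tested in SC-like cells, Flrt1, a membrane protein that binds FGF receptors, was higher, at 23.6 CPM at P2 and 6.53 CPM at E14 (3.61 times, 2.77 to 4.75). Its relative Flrt2 was lower, at 4.44 CPM at P2 and 10.2 CPM at E14 (0.434 times), but at 0.711 times against cluster 7 alone. Fgfr4 in SC-like cells was at 16.0 CPM at P2 and 8.19 CPM at E14, 1.96 times (1.52 to 2.54), just under the limit, and Fgfrl1, a receptor without a kinase domain, was at 1.23 times. In HC-like cells Fgfr4 at 0.465 times (0.199 to 1.18), with 18 UMIs at P2 and 9 at E14, and Flrt2 at 0.110 times were lower.

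Heparan sulfate and FGF-binding genes were mostly within 2-fold, with 1 of 13 higher and 2 lower in SC-like cells. Hs2st1, which sulfates the 2-O position of heparan sulfate, was at 89.3 CPM at P2 and 38.2 CPM at E14 (2.34 times, 2.09 to 2.62). Gpc3, a glypican, was at 0.493 times and Sulf2, which removes sulfate from heparan sulfate, at 0.453 times, and Gpc3 was at 0.791 times against cluster 7 alone. In HC-like cells Hs6st2 was higher at 2.31 times and Ndst2 lower at 0.473 times. Of the 14 adaptors and Ras-ERK steps all were tested, and Frs3, an FGF receptor adaptor, was the 1 gene lower in SC-like cells, at 0.352 times, and in HC-like cells, at 0.372 times. The others, including the ERK kinases Map2k1 at 0.937 times and Map2k2 at 0.876 times in SC-like cells, were within 2-fold. Of the 4 intracellular FGF homologous factors, which bind sodium channels and are not secreted, Fgf12 was higher in SC-like cells at 2.29 times, although at 1.87 times against cluster 7 alone, and in HC-like cells at 2.37 times. Against cluster 7 alone Fgf14 was higher in SC-like cells, at 3.11 times (1.81 to 5.73), where against all E14 SC-like cells it was at 1.04 times, and Fgf13 was lower in HC-like cells at 0.194 times, with 10 UMIs at P2 and 12 at E14.

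Which genes shared a pattern with each of the 9 was read from the correlation of log2(CPM + 5) across the 19 clusters of P2 and the 29 clusters of E14, ranked by the smaller coefficient of the 2 ages. These are descriptions across clusters of the same library, which share depth and cell type. Fgf3 went with Cyp2s1 (r = 0.87 at P2 and 0.96 at E14), Tnfaip2 and the Notch target Hes5. Fgf10 went with Hopx (r = 0.95 at P2 and 0.90 at E14), Mettl24 and Hs3st3a1, Fgf9 with Arhgef19, Tbx3 and the otoconial gene Oc90 (r = 0.88 at P2 and 0.87 at E14), and Fgfr2 with Col14a1 (r = 0.87 at P2 and 0.82 at E14), Frk and Gpc3. Spry1 went with Sparc (r = 0.91 at P2 and 0.88 at E14), Nfib and Fkbp9, Spry2 with Rhobtb3 (r = 0.80 at P2 and 0.79 at E14), the Notch target Hey1 and Adgra3, and Fgfr1 with Neo1 (r = 0.86 at P2 and 0.84 at E14), Cask and Grik5. Fgf20 and Fgfr3 reached 20 CPM in no cluster.

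**Figure D3:**
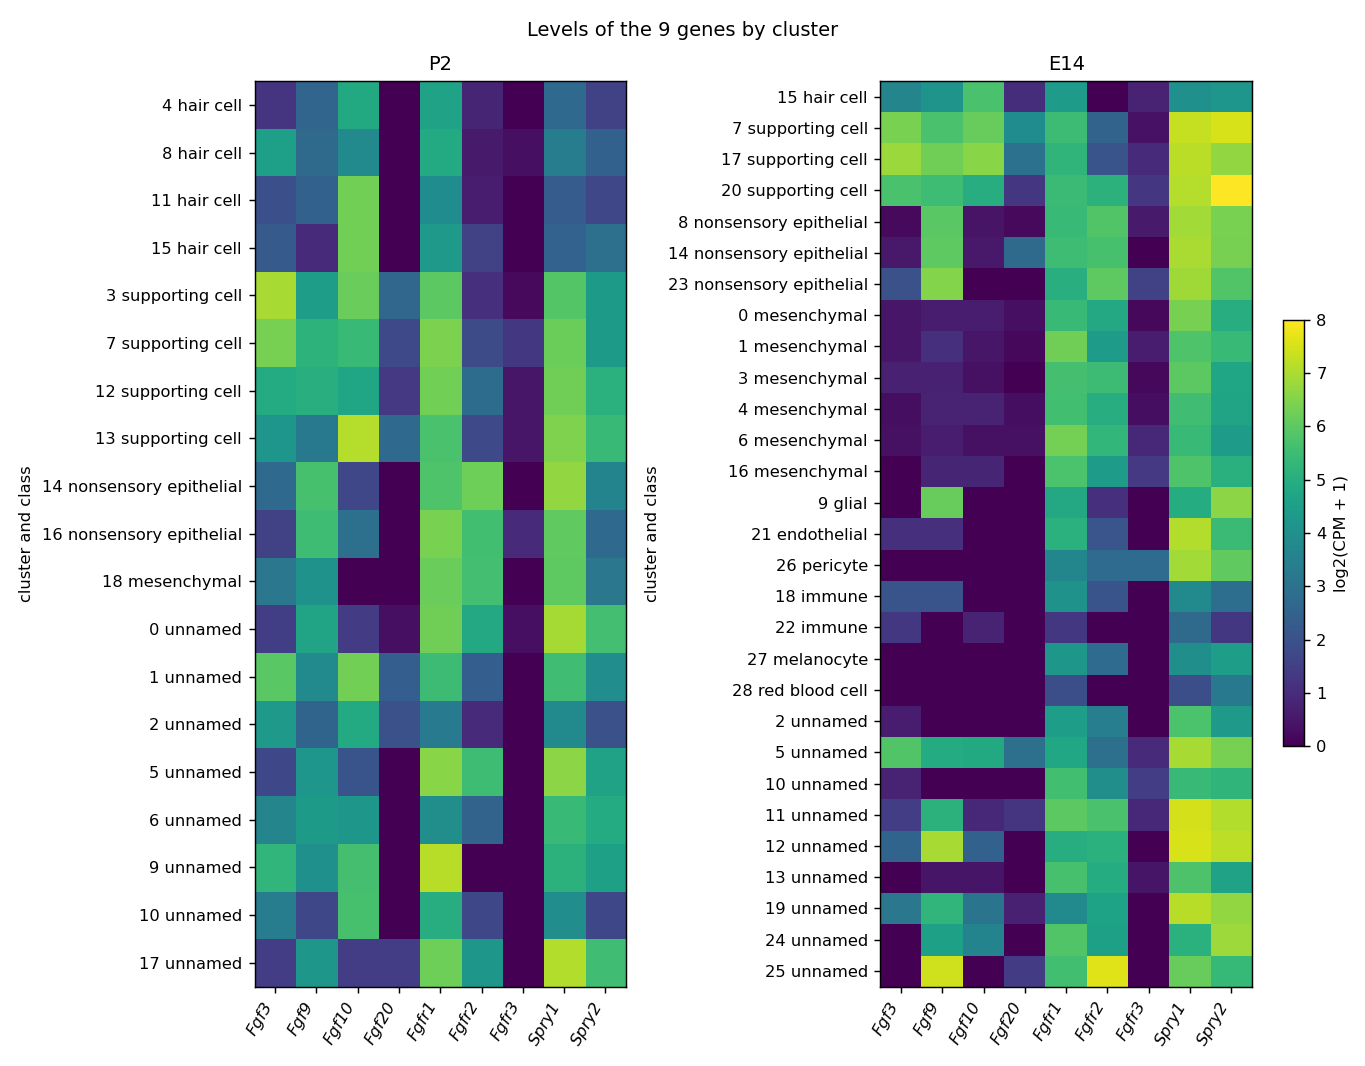
Level of the 9 genes in every cluster, as log2(CPM + 1) in colour, for the 19 clusters of P2 on the left and the 29 of E14 on the right, ordered by class with unnamed clusters last. The ligands Fgf3 and Fgf10 are dark in the mesenchymal-like clusters of E14, where Fgfr1 and Fgfr2 are bright, and the brightest Fgf9 and Fgfr2 are in the unnamed E14 cluster 25, at 168.7 and 192.3 CPM.

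Whether genes were found in the same SC-like cells was counted in cells thinned to 4000 UMIs. At P2 Fgf3 was found in 24.4% of the 172 cells with an Fgf10 UMI and in 24.8% of the 600 without, with overlapping intervals. Fgfr1 was found in 21.5% of the 191 cells with an Fgf3 UMI and 19.97% of the 581 without. The exceptions at P2 were the pair of Fgf10 and Spry2 and that of Fgf9 and Spry1. Fgf10 was found in 39.1% of the 64 cells with a Spry2 UMI (27.1% to 52.1%) and 20.8% of the 708 without (17.8% to 23.9%), and Spry2 in 14.5% of the 172 cells with an Fgf10 UMI (9.63% to 20.7%) and 6.5% of the 600 without (4.66% to 8.78%). Spry1 was found in 9.38% of the 64 cells with an Fgf9 UMI (3.52% to 19.3%) and 22.6% of those without (19.6% to 25.9%). Within each of the 4 P2 clusters taken alone, the intervals overlapped for every pair compared. They did so over the whole E14 SC-like class as well, while in E14 cluster 7 Fgfr1 was found in 5.88% of the 85 cells with an Fgf10 UMI (1.94% to 13.2%) and 17.6% of the 295 without (13.5% to 22.5%), and Fgf10 in 8.77% of the 57 cells with an Fgfr1 UMI (2.91% to 19.3%) and 24.8% of the 323 without (20.2% to 29.8%). In all, 328 such comparisons were made.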

How the data were processed

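Cells came from 1 library per age, made with a 3′ droplet kit. The deposited tables hold raw UMI counts per gene and barcode, which the authors made with Cell Ranger 3.1.0. The labels name both GRCm39 and mm10, and coordinates here are those of RefSeq GRCm38.p6. The cell filter required 500 detected genes and 1000 UMIs, and a mitochondrial share no higher than 15%. Barcodes with the highest scores against simulated doublets were removed, at 0.8% per 1000 barcodes. Counts were scaled to 10000 per cell and log-transformed. Clusters came from 2000 variable genes, 30 principal components, 15 neighbours and Leiden resolution 1 (leidenalg 0.10.2, scikit-learn 1.9.0), with the 9 genes, the pathway lists and the markers left out. A class needed at least 3 of its markers in a cluster, and more than any other class had. Each marker had to be in at least 10% of the cluster's cells and at least 2-fold above the rest. Its level also had to reach 20% of that in its highest cluster. No name was given where the 10 leading genes held more markers of another class. A cluster with a median under 33.3% of the library's median UMIs also needed a marker of its class among those genes. Cell types are thus rebuilt and may differ from those of the study. The computations were tested on simulated data. The members and lists were chosen with earlier results of these data known. The genes named were the 9 members, and from each pathway list the 4 with the highest mean level and those past 2-fold between ages in a sensory class. Atoh1, Isl1 and Cyp26b1 were named after their values were seen, beside the 3 leading genes given for a cluster. Alternatives to cell filter, doublet removal, clustering, naming, fold limit, minimum count and thinning depth were tried, as were 2 added after the values were seen.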

Additional observations from a re-analysis of the deposited data

Results flagged for a closer look

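Several clusters that stayed unnamed held a gene above the larger named classes of the same age, outside the comparisons of the report. Left out as too small were the 34 mesenchymal-like cells of P2 and the 47 pericyte-like, 41 melanocyte-like and 30 red blood cell-like cells of E14. The P2 cluster 0, 511 cells led by Penk, Gchfr and Caln1, held Spry1 at 120.7 CPM (113.1 to 128.7) and Spry2 at 47.9 CPM (43.2 to 53.1), where the highest larger classes were at 83.2 CPM of Spry1 and 25.4 CPM of Spry2. The P2 cluster 17, 41 cells led by the cell cycle genes Ube2c, Pclaf and Hist1h1b, held Spry1 at 134.0 CPM (105.6 to 167.8) and Spry2 at 45.9 CPM (29.95 to 67.2). Fgfr1 at P2 was at 93.5 CPM (84.6 to 103.1) in cluster 5, led by H19, Sostdc1 and Spon1, and at 139.4 CPM (98.2 to 192.1, 37 UMIs) in cluster 9, led by Nckap5, AY036118 and Gm26917, with 69.7 CPM in nonsensory epithelial-like cells. Cluster 9 was the shallowest cluster of P2, with a median of 1296 UMIs, against 10479.5 UMIs in nonsensory epithelial-like cells. The 34 mesenchymal-like cells of P2 were at 71.3 CPM of Fgfr1 (32.6 to 135.4), 63.4 CPM of Spry1 (27.4 to 124.9) and 7.92 CPM of Spry2 (0.201 to 44.2), intervals wide enough to overlap with those of clusters 5 and 9 for Fgfr1 and 0 and 17 for both Sprouty genes.

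At E14, Spry1 was at 178.5 CPM (166.5 to 191.1) in cluster 11, led by Slc26a4, Cldn22 and Sfrp1, and at 180.7 CPM (169.7 to 192.1) in cluster 12, led by Sfrp5, Wnt3 and Smoc2, where SC-like cells had 150.6 CPM and the 47 pericyte-like cells 117.9 CPM (72.1 to 182.2). Cluster 12 also held Fgf9 at 123.9 CPM (114.8 to 133.4). Cluster 25, 51 cells led by Aldh1a1, Wfdc12 and Mylk3, held Fgf9 at 168.7 CPM (137.2 to 205.1) and Fgfr2 at 192.3 CPM (158.6 to 231.0), where the highest larger classes had 69.9 CPM of Fgf9 and 55.5 CPM of Fgfr2. Not 1 UMI of Fgf3 or Fgf10 was counted in cluster 25.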

How the results depend on the processing

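No paired analysis was possible because each age had 1 library. Over 16 alternative settings and 2 more chosen after the values were seen, 418 of 490 ratios stayed within their counting intervals, 71 moved beyond them and 1 called ratio turned, Fgfr2 in HC-like over SC-like cells at E14, at a log2 ratio of 0.67 with Leiden resolution 0.5. Ratios within 2-fold also changed direction under some settings, with the farthest values 1.28 for Fgf3 and 1.30 for Fgf10 in SC-like cells, 1.53 for Fgf3 and 0.757 for Fgfr1 in HC-like cells, 0.896 for Fgfr2 in nonsensory epithelial-like cells, all P2 over E14, and 1.10 for Fgf10 in HC-like over SC-like cells at E14. Of 108 shares of cells 70 moved, where the only alternatives were thinning to 2000 or 6000 UMIs and no thinning. Detection rises with depth, so such moves were built in and say nothing of the cell filter or clustering. The 5 genes past 2-fold in SC-like cells between ages became 1 at a 3-fold limit. The 3 in HC-like cells became 6 with doublets kept and 5 at resolution 0.5. The 1 in nonsensory epithelial-like cells became 3 with doublets kept, 2 with the stricter cell filter, 2 at a 1.5-fold limit and 3 from 10 UMIs. The 7 in HC-like over SC-like cells at E14 became 2 with doublets kept and 4 at resolution 0.5, and the count at P2 stayed within 1.5 times. In these cases the cause was not tested. Spry1 and Spry2 stayed past 2-fold in SC-like cells under 14 of 14 alternatives, as did Fgf9 and Spry2 in HC-like cells and Spry2 in nonsensory epithelial-like cells. Calls were lost for Fgf9 in SC-like cells with doublets kept (0.515), for Fgf20 in SC-like cells with names from marker counts alone (0.503), for Fgfr2 in SC-like cells under 4 settings (up to 0.607) and for Spry1 in HC-like cells with list genes and markers kept for clustering (0.744). In HC-like over SC-like cells at E14, doublets kept took Fgf3 to 0.519, Fgf20 to 0.5299, Spry1 to 0.511 and Spry2 to 0.887. Depth limited Fgfr3 in every class and Fgf20 and Fgfr2 in HC-like cells.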
